A study of Drosophila melanogaster with 2 samples.

Results

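The unfolded protein response and the degradation of misfolded proteins from the endoplasmic reticulum (ER) were followed through 10 genes, chosen by name as known genes of these pathways, with earlier results of these data known: *PEK*, *Ire1*, *Atf6*, *Xbp1*, *crc*, *Hsc70-3*, *Gp93*, *Der-1*, *Der-2* and *Edem1*. All 10 were found among the 17559 genes of the deposited table. All 10 had at least 20 reads over both libraries together, the limit above which a gene was treated as measured. RNA was isolated from 10 whole heterozygous *taf1*-mutant flies (w1118; taf1[1]/+, labelled Taf1_1 heterozygous mutant) and from 10 whole control flies (w1118), and each pool gave 1 library. The mutant flies came from a cross to the control line of a stock that carries taf1[1] together with red[1] and e[1] over the balancer TM3, SB[1], so alleles of *red* and *e* lie on the same chromosome as the *taf1* allele, and the mutant flies carry 1 chromosome set from that stock and 1 from the control line. The sources used here give neither the sex nor the age of the flies. A single library stood for each genotype, so differences could not be checked over replicates or given a p-value, and they are differences between libraries.

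Secreted and membrane proteins fold in the ER. When unfolded proteins accumulate there, 3 sensors in the ER membrane respond. PEK, the fly PERK, phosphorylates the translation factor eIF2alpha, which lowers protein synthesis while the mRNA of *crc*, the fly ATF4, is translated more. Ire1 cuts an intron out of the *Xbp1* mRNA so that an active transcription factor is made, and Atf6, in mammals, is cleaved in the Golgi to release a transcription factor. The factors raise the expression of ER chaperones such as Hsc70-3 (the fly BiP) and Gp93 (the fly GRP94). They also raise components of ER-associated degradation, such as the derlins Der-1 and Der-2 and the mannosidase-like protein Edem1, which help to move misfolded proteins out of the ER to the proteasome. Counts per gene hold neither the splicing of *Xbp1* nor the phosphorylation or cleavage of the sensors, so the levels below are total transcript levels only.

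The libraries held 32364756 reads (*taf1* mutant) and 16753242 reads (control). Library sizes were set by edgeR's TMM method, which assumes that most genes do not differ, and levels are given as CPM, reads per 1e6 reads of that size. Intervals are exact 95% intervals that cover counting error only. *Taf1* itself had 1564 reads in the mutant library and 1352 reads in the control library, and its log2 ratio (mutant over control throughout) was -0.48 (-0.58 to -0.37), short of the limit for a call described next. With scaling by total reads or to qPCR reference genes *Taf1* was called lower, at -0.74 and -0.80, and relative to the median of its 200 neighbours in transcript length and expression it was at -0.20 and not called. A gene was called when it differed at least 1.5-fold with an interval that excluded equality. By this rule 1481 of 11606 measured genes were called higher and 716 lower, but with scaling by total reads 805 were higher and 2220 lower, and on the scale of *RpL32*, *eEF1alpha2* and *Act5C*, the reference genes of the study's qPCR, 719 were higher and 2753 lower. These 2 scalings move every log2 ratio by -0.26 and -0.33, and the changes below are relative to TMM unless stated. Total reads include mitochondrially encoded genes, which took 15.2% of reads in the mutant library and 2.91% in the control library. Their part in the shift of -0.26 was not tested. Markers of all tissues looked for were present in both libraries, although the neuronal gene *elav* and 3 of 6 accessory gland genes were listed at 0 in both. Fat body markers were called higher in 6 of 9 cases and midgut markers in 4 of 7, and 2 of 6 measured neuronal markers were called lower, with all 6 below 0. In pooled whole flies, fewer cells of a type and less RNA per cell cannot be told apart.

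Among the 10 genes, *Der-1* was called lower in the *taf1*-mutant library and none was called higher. The background over all measured genes was 6.17% called lower and 12.8% called higher, so 1 of 10 is a share near the background. The other 9 genes lay between a log2 ratio of -0.24 (*Hsc70-3*) and 0.35 (*Atf6*). Their median with *Der-1* included was -0.04, beside 0.0040 over all measured genes. Summed over the 10 genes, the libraries held 2934 CPM in the mutant and 2906 CPM in control (log2 ratio 0.01, -0.0024 to 0.03). With TMM the summed level was thus close to equal in both libraries, while single genes differed. The 2 transcription factor genes and *Atf6* and *Edem1* lay above control, both chaperones, *PEK*, *Ire1* and the derlins below it, and the interval reached 0 for *Ire1*, *Gp93* and *Der-2*.

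**Figure D1:**
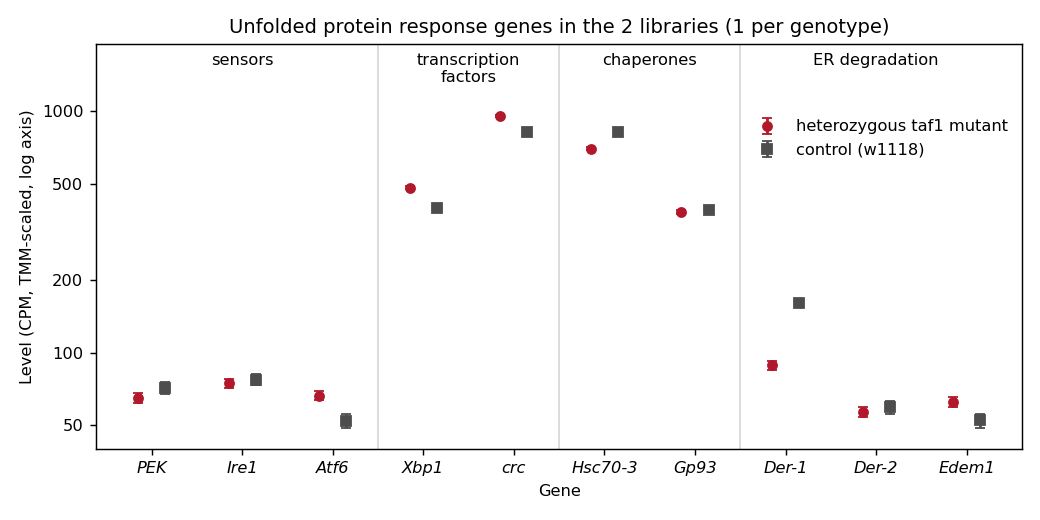
Level of each of the 10 genes in CPM (TMM-scaled, log axis) in the heterozygous *taf1*-mutant library (red circles) and the control library (grey squares), 1 library each, with exact 95% Poisson intervals. *Der-1* stands apart at 88.6 CPM in the mutant library, against 161 CPM in the control library, while the other pairs lie close together.

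*Der-1* (FBgn0267972; BDGP6, 2L, 1973957 to 1975413, plus strand) encodes a derlin, a membrane protein of the channel through which misfolded proteins leave the ER. It had 2387 reads in the mutant library although that library was the larger, and 2702 reads in the control library. After scaling these were 88.6 CPM in the mutant library and 161 CPM in the control library. The mutant library thus held 54.9% of the control level, a log2 ratio of -0.86 (-0.94 to -0.78). Of all measured genes 2.72% had a lower ratio. *Der-1* was called lower under each of the other scalings and settings tried, from -0.86 to -1.19, and at a limit of 2-fold it was not called. The other scalings move every ratio down, or up by 0.0005 at most, so they could not undo this call. The share of all genes called lower was 19.1% with total reads and 23.7% on the qPCR reference scale, where *Der-1* was lowest, 6.30% with median of ratios, 6.27% with the upper quartile, 7.41% with the authors' own scaling, 6.15% with TMM sizes set without mitochondrially encoded genes, 6.19% with a prior count of 2, 5.91% with no limit on low reads, 5.48% among genes with at least 100 reads and 1.70% at 2-fold. The shares called higher, where none of the 10 genes was called, were 12.7% (median of ratios and upper quartile), 11.6% (authors' own), 12.6% (prior count of 2), 11.7% (no limit), 12.2% (at least 100 reads) and 5.70% (2-fold). In each of these settings *Der-1* was thus the gene called among the 10 where any was.

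*Der-2* (FBgn0038438; 3R, 16482694 to 16484223), the second derlin, did not share this difference. It had 1533 reads (56.9 CPM) in the mutant library and 995 reads (59.4 CPM) in the control library, a log2 ratio of -0.06 (-0.18 to 0.05). Within a library the ratio of 2 genes does not depend on the scaling. There were 1.56 *Der-1* reads per *Der-2* read in the mutant library and 2.72 in the control library, and the ratio of these ratios was 0.573 (0.520 to 0.632). The derlins therefore differed from each other by more than counting error under any scaling.

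*Edem1* (FBgn0023511; X, 1903704 to 1908827) acts on misfolded glycoproteins by way of their mannose residues. It had 1687 reads (62.6 CPM) in the mutant library and 878 reads (52.4 CPM) in the control library, a log2 ratio of 0.26 (0.14 to 0.38). Its paralog *Edem2* was at 75.3 CPM in the mutant library and 72.6 CPM in the control library (log2 ratio 0.05). The reads of *Edem1* per read of *Edem2* were 0.831 in the mutant library and 0.721 in the control library (ratio of ratios 1.15, 1.03 to 1.29). With scaling by total reads *Edem1* was at -0.0082 and on the qPCR reference scale at -0.07, so its direction rests on the scaling. With TMM the 3 degradation genes among the 10 thus lay on both sides of 0, and the interval of *Der-2* held 0. All 3 were below 0 with total reads (*Der-1* -1.13, *Der-2* -0.33) and on the qPCR reference scale (-1.19 and -0.39). Summed they held 208 CPM in the mutant library and 273 CPM in the control library. The lower sum came from *Der-1*, at 88.6 CPM in the mutant library and 161 CPM in the control library.

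Of the sensors, *Atf6* (FBgn0033010; 2R, 5144733 to 5154756) had the highest ratio of the 10 genes. It had 1791 reads (66.4 CPM) in the mutant library and 871 reads (52.0 CPM) in the control library, or 1.28-fold (log2 ratio 0.35, 0.24 to 0.47), below the limit for a call. It stood at percentile 76.7 of all measured genes. With scaling by total reads *Atf6* was at 0.09 (-0.03 to 0.21). On the qPCR reference scale it was at 0.03 (-0.09 to 0.15), and both of these intervals held 0. At a lower limit of 0.32 on the log2 scale it was called higher, where 22.0% of all genes were called higher and 17.6% lower. *PEK* (FBgn0037327; 3R, 5458563 to 5464753), the eIF2alpha kinase of the ER, had 1752 reads (65.0 CPM) in the mutant library and 1196 reads (71.4 CPM) in the control library. This is a log2 ratio of -0.14 (-0.24 to -0.03), which turned to 0.03 once the median ratio of its 200 neighbours in transcript length and expression was taken off. With scaling by total reads *PEK* was at -0.40 and on the qPCR reference scale at -0.46. *Ire1* (FBgn0261984; 3R, 19853908 to 19861291), a kinase and ribonuclease, had 2013 reads (74.7 CPM) in the mutant library and 1297 reads (77.4 CPM) in the control library (log2 ratio -0.05, -0.15 to 0.05). With total reads *Ire1* was at -0.32 (-0.42 to -0.21) and on the qPCR reference scale at -0.38 (-0.48 to -0.28), where its interval excluded 0. The ratio of *PEK* to *Ire1* reads was 0.870 in the mutant library and 0.922 in the control library, and the interval of the ratio of ratios (0.852 to 1.05) held 1. Against *Gcn2*, the other eIF2alpha kinase, *PEK* was higher within the library, at 1.38 reads per *Gcn2* read in the mutant library and 1.21 in the control library (ratio of ratios 1.14, 1.02 to 1.27). *PEK* lies 1.18 Mb from *Taf1* on the same chromosome arm. The 4 of the 10 genes on 3R lay between -0.14 and -0.02, and none of them was called.

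The transcription factor genes were among the most abundant of the 10. *crc* (FBgn0000370; 2L, 21310866 to 21319527) had 25725 reads (954 CPM) in the mutant library and 13743 reads (820 CPM) in the control library, a log2 ratio of 0.22 (0.19 to 0.25). It is distinct from the calreticulin gene, listed as *Crc* in the table and as *Calr* here. *Xbp1* (FBgn0021872; 2R, 21143545 to 21145750) had 13018 reads (483 CPM) in the mutant library and 6665 reads (398 CPM) in the control library, a log2 ratio of 0.28 (0.24 to 0.32). Both intervals exclude 0 with TMM. On the qPCR reference scale both turned below 0, to -0.11 for *crc* and -0.05 for *Xbp1*, and with scaling by total reads *crc* was at -0.05 and *Xbp1* at 0.02. *Xbp1* and *Atf6* did not part within the libraries, with 7.27 *Xbp1* reads per *Atf6* read in the mutant library and 7.65 in the control library (log2 of the ratio of ratios -0.07, -0.20 to 0.05).

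The chaperone *Hsc70-3* (FBgn0001218; X, 11801696 to 11807117) had 18828 reads (698 CPM) in the mutant library and 13797 reads (824 CPM) in the control library. The mutant library held 84.8% of the control level, a log2 ratio of -0.24 (-0.27 to -0.21), with no call under any scaling tried. *Hsc70-3* was at -0.50 with scaling by total reads and at -0.56 on the qPCR reference scale, near the limit for a call. *Gp93* (FBgn0039562; 3R, 27948711 to 27952151) had 10341 reads (384 CPM) in the mutant library and 6533 reads (390.0 CPM) in the control library, a log2 ratio of -0.02 (-0.07 to 0.02). With total reads *Gp93* was at -0.29 (-0.33 to -0.24) and on the qPCR reference scale at -0.35 (-0.39 to -0.30), where its interval excluded 0. Both genes are paralogs of cytosolic chaperones, and within the libraries they stood lower against these in the mutant. Reads of *Hsc70-3* per read of *Hsc70-4*, the main cytosolic HSP70, were 0.312 in the mutant library and 0.448 in the control library (ratio of ratios 0.697, 0.679 to 0.715). Reads of *Gp93* per read of *Hsp83*, the cytosolic HSP90, were 0.261 in the mutant library and 0.308 in the control library (0.848, 0.818 to 0.878). *Hsc70-4* and *Hsp83* themselves were at log2 ratios of 0.28 and 0.21, and turned to -0.04 and -0.11 on the qPCR reference scale, and *Hsp83* to -0.05 with scaling by total reads. Such read ratios do not remove differences tied to transcript length and expression. Relative to their 200 neighbours, *Hsc70-3* was at -0.10 and *Hsc70-4* at 0.28, and *Gp93* was at 0.10 and *Hsp83* at 0.27. Between the ER chaperones, *Hsc70-3* reads per *Gp93* read were 1.82 in the mutant library and 2.11 in the control library (0.862, 0.830 to 0.896).

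**Figure D2:**
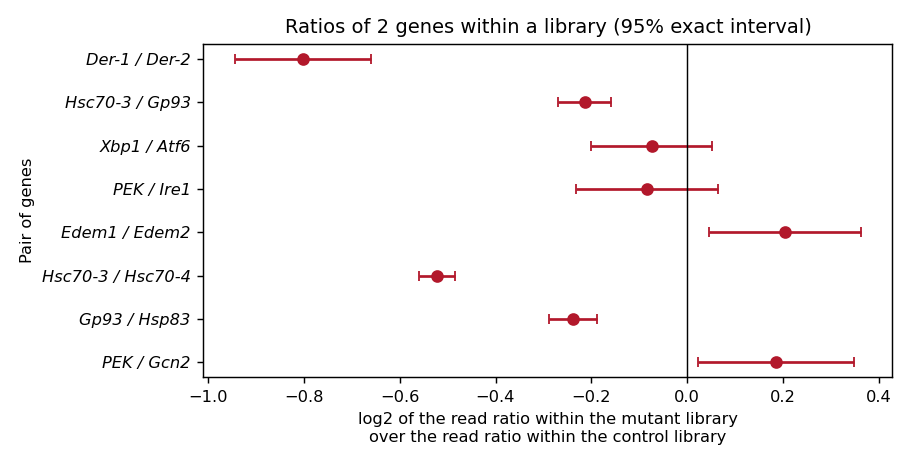
For 8 pairs of genes, the log2 of the read ratio within the *taf1*-mutant library over the same ratio within the control library, with exact conditional 95% intervals; these values do not depend on the scaling. *Der-1* over *Der-2* is farthest from 0 at -0.80, followed by *Hsc70-3* over *Hsc70-4* at -0.52, and the intervals of *Xbp1* over *Atf6* and *PEK* over *Ire1* hold 0.

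The make-up of the 10 genes' reads is also free of scaling. It uses the same reads, and their sum was close to equal with TMM. The shares therefore follow the ratios above and are no separate check on these reads. *crc* took 32.5% of these reads in the mutant library (32.2 to 32.9, exact binomial) and 28.2% in the control library (27.8 to 28.6), and *Hsc70-3* took 23.8% in the mutant library (23.5 to 24.1) and 28.3% in the control library (27.9 to 28.7). *crc* was thus the most counted of the 10 genes in the mutant library, while in the control library the intervals of *crc* and *Hsc70-3* overlapped. *Xbp1* took 16.5% in the mutant library and 13.7% in the control library, and *Der-1* 3.02% in the mutant library and 5.55% in the control library. Levels of different genes were compared per kilobase of transcript, with the median length of each gene's annotated transcripts. In the mutant library the order was *crc* (460.0 CPM per kb), *Hsc70-3* (231), *Xbp1* (227), *Gp93* (135), *Der-1* (76.0), *Der-2* (40.9), *Atf6* (21.6), *Ire1* (18.5), *Edem1* (16.1) and *PEK* (15.2). In that order the intervals of the neighbours *Hsc70-3* and *Xbp1*, and of *Edem1* and *PEK*, overlapped. In the control library *Der-1* (138) and *Gp93* (137) were level, with *crc* at 395, *Hsc70-3* at 273 and *Xbp1* at 187, *Der-2* at 42.7 and the sensors and *Edem1* between 13.5 and 19.2. The sensors and *Edem1* were thus the least abundant of the 10 in both libraries, between percentile 49.1 and 60.9 of all measured genes per kb, and *crc*, *Hsc70-3* and *Xbp1* lay above percentile 95 in both.

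Over all measured genes the log2 ratio declined with transcript length, from a median of 0.18 in the tenth with the shortest transcripts (up to 650 nt) to -0.28 in the tenth with the longest (from 4435 nt). The 10 genes span 1165.5 nt (*Der-1*) to 4265 nt (*PEK*). Relative to the median of their 200 neighbours *Der-1* moved to -0.99, *Atf6* to 0.46, *Edem1* to 0.40 and *Xbp1* to 0.34, *Hsc70-3* to -0.10 and *Gp93* to 0.10. In this comparison *Der-1* was again the gene called, and the median of the 10 was 0.09.

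**Figure D3:**
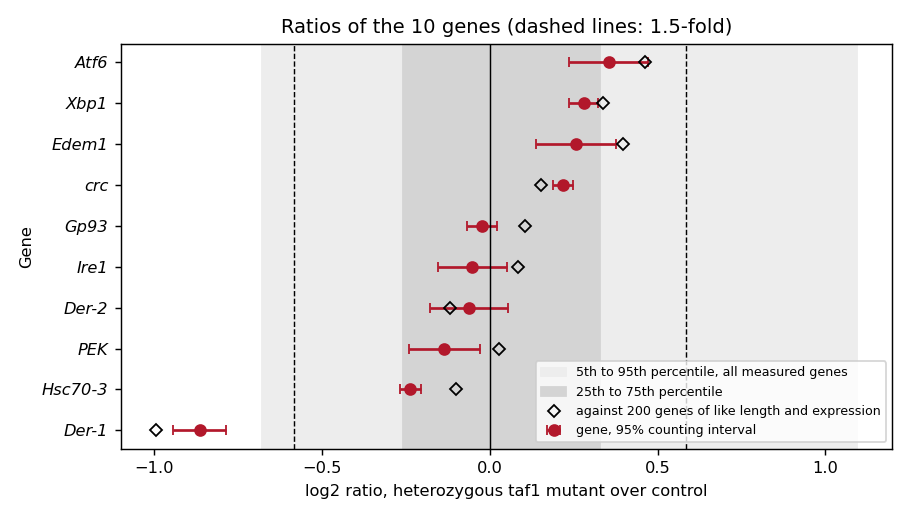
Log2 ratio of mutant over control for the 10 genes in order of their ratio (red circles, 95% exact counting interval) and the same ratio relative to 200 neighbours in transcript length and expression (open diamonds), over the 5th to 95th (light) and 25th to 75th (dark) percentiles of all measured genes, -0.68 to 1.10 and -0.26 to 0.33. *Der-1* lies outside the lighter band, and the others lie within it.

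**Figure D4:**
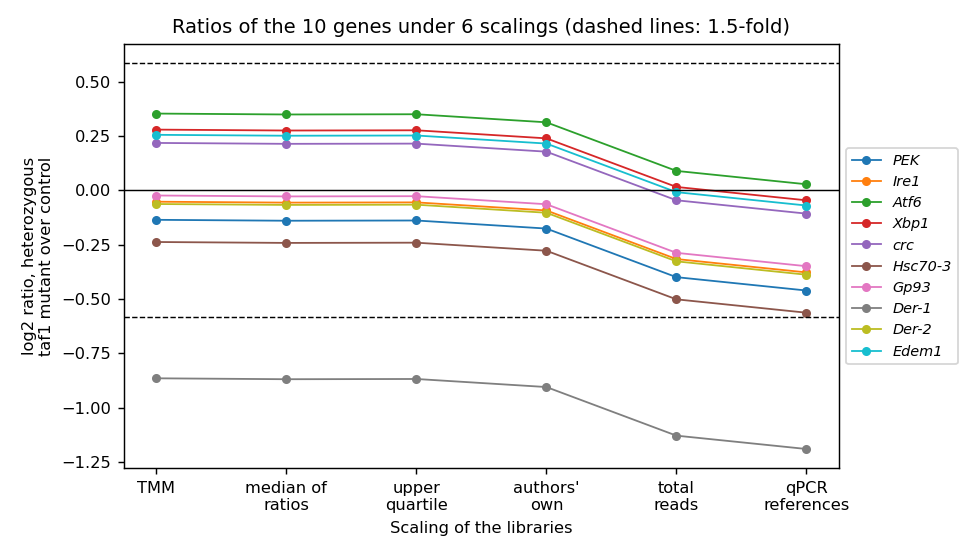
Log2 ratio of mutant over control for the 10 genes under 6 scalings of the libraries. *Der-1* lies below the 1.5-fold line (dashed) under all 6, and *Xbp1*, *crc* and *Edem1* pass from above 0 with TMM to below 0 with the qPCR reference genes.

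Exons of 4 of these genes overlap those of other genes, and the sources used here give neither the annotation nor the strand setting of the counting. The protein-coding gene *CG46314* is annotated on the same strand over 73.5% of the exon bases of *crc*, so over that stretch the reads of *crc* cannot be told apart from those of *CG46314*. *MICU3* on the opposite strand covers 12.3% of the exon bases of *Ire1*, and *CG4951* 3.56% of those of *Gp93*. For *Edem1* the overlap with either of 2 opposite-strand genes is under 0.7%. *Der-1*, *Hsc70-3*, *Xbp1*, *Atf6*, *PEK* and *Der-2* overlap no other gene's exons.

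The wider pathway was described with 8 hand-written lists of 88 further genes, of which 86 were found, 79 were measured and 7 were listed at 0 in both libraries. Of these 5 were called higher and none lower, which is below the background of 12.8% and 6.17%, and their median log2 ratio was 0.06. The medians of the single lists reached 0.32 at most, less than the shift of -0.33 on the qPCR reference scale, so all of them lie below 0 there. Scaling by total reads gave 3 higher and 8 lower against a background of 6.94% and 19.1%, and the qPCR reference scale 3 higher and 11 lower against 6.20% and 23.7%. The genes lower under both were *CG2918*, *Ero1L*, *Gcn2*, *Herp*, *Sec16*, *Sec24AB*, *Tango1* and *sip3*.

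None of 16 measured ER folding genes was called, and their median was 0.06. The highest were *Torsin*, an AAA ATPase of the ER lumen, at 0.38 (28.6 CPM in the mutant library and 22.0 CPM in the control library), and the glucosidase gene *GCS1* at 0.37. The lowest was *CG2918*, the fly counterpart of the HSP70-like ER chaperone GRP170, with 6716 reads (249 CPM) in the mutant library and 5857 reads (349.6 CPM) in the control library (log2 ratio -0.49, -0.54 to -0.44). The next was *Ero1L*, the oxidase that drives disulfide formation, at -0.32. *CG2918* and *Ero1L* are called lower with scaling by total reads (-0.75 and -0.59).

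Of 14 measured genes of ER-associated degradation, 1 was called higher and none lower, and the median was -0.0082. Those with the lowest ratios were *Herp*, a membrane scaffold of the degradation complex, at -0.37 (-0.44 to -0.29; 119.6 CPM in the mutant library and 154 CPM in the control library) and *sip3*, the fly HRD1 ubiquitin ligase, at -0.33 (-0.40 to -0.25; 137 CPM in the mutant library and 172 CPM in the control library). Over the list 7 genes lay above 0 and 7 below, among them *Ubc7*, a ubiquitin-conjugating enzyme of this route, at 0.15 and *Hrd3*, a partner of *sip3*, at -0.23. The gene called higher was *sordd2* (FBgn0052581; X, 15796908 to 15799162), a RING-finger ubiquitin ligase gene of the ER, listed as *CG32581*. It had 789 reads (29.3 CPM) in the mutant library and 0 reads in the control library. Set against 3 reads in the control library, the limit that a count of 0 allows, it was at least 163-fold higher, and the lower end of the exact interval of its log2 ratio was 7.05. *sordd2* lies beside its paralog *sordd1* (X, 15793721 to 15796028), which had 2581 reads in the mutant library and 1424 reads in the control library (log2 ratio 0.17). How reads were divided between these paralogs was not tested, nor was any other source of the difference in *sordd2*. Together they held 3370 reads in the mutant library and 1424 reads in the control library (log2 ratio 0.56, 0.47 to 0.65), below the 1.5-fold limit. Only 6 genes of the table had 100 reads or more in the mutant library and 0 in the control library, and none the reverse. The limit of 100 reads was the same for both libraries although the mutant library was the larger, so these 2 counts are not at like levels.

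Of 10 genes of the eIF2 arm, which PEK and Gcn2 act on, 8 lay above 0 with a median of 0.32, and 1 was called higher. This was *eIF2Bepsilon*, a subunit of the exchange factor that recharges eIF2, at 0.589 (0.40 to 0.78) and thus at the limit itself (0.58496). It had 797 reads (29.6 CPM) in the mutant library and 329 reads (19.6 CPM) in the control library, and was not called with median of ratios (0.5849), the authors' own scaling (0.55), total reads (0.33) or the qPCR reference scale (0.26). *eIF2beta* was at 0.51, *eIF2Bdelta* at -0.14 and *Gcn2* at -0.32, the lowest. Of 9 genes of the ATF4 response 5 were measured and 1 was called higher. *Nmdmc*, a mitochondrial enzyme of folate metabolism, had 2428 reads (90.1 CPM) in the mutant library and 474 reads (28.3 CPM) in the control library (log2 ratio 1.67, 1.53 to 1.82) and was called under each scaling. The other measured genes were *Ldh* at 0.33, *trbl* at 0.0078, *Xrp1* at -0.02 and *Thor*, the translational repressor 4E-BP, at -0.07, so 4 of the 5 were not called. *Thor* was at -0.52 relative to its 200 neighbours. *AsnS*, *aay* and *Irbp18* were listed at 0 in both libraries.

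Among 3 measured genes tied to Ire1, *SPARC*, an extracellular matrix gene whose mRNA is a target of Ire1 in fly cells, was called higher. It had 4802 reads (178 CPM) in the mutant library and 1319 reads (78.7 CPM) in the control library, a log2 ratio of 1.18 (1.09 to 1.27). *SPARC* is also expressed by fat body and blood cells, and the summed fat body markers held 2511 CPM in the mutant library and 1417 CPM in the control library (9 of 9 above 0; *Lsp2* 10.2 CPM in the mutant library and 1.61 CPM in the control library). Their part in the level of *SPARC* was not tested. The RNA ligase gene *RtcB*, which joins the *Xbp1* exons in animals, was at 0.27 and *Archease* at 0.14, and *Fatp1* was listed at 0 in both libraries.

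Of 17 measured genes of the translocon, signal peptidase and signal recognition particle, *Srp14*, a subunit of that particle, was called higher at 0.62 (0.40 to 0.85; 20.6 CPM in the mutant library and 13.4 CPM in the control library). At 464 nt it is a short transcript, and relative to its 200 neighbours it was at 0.42, below the limit. It was not called either with the authors' own scaling (0.58), total reads (0.36) or the qPCR reference scale (0.30). The median of the list was 0.07, from *Srp72* at -0.22 and *SrpRbeta* at -0.20 to *Srp14* and *Srp19* (0.46). The 6 oligosaccharyltransferase genes lay between *Stt3A* at -0.09 and *Ost48* at 0.25 with no call, with *Stt3B* at 0.18 and *Dad1* at 0.04. Of 8 genes of the COPII coat, which carries cargo out of the ER, 7 lay below 0 with a median of -0.29 and none was called with TMM. *Sec24AB* had the lowest ratio at -0.46 (185 CPM in the mutant library and 255 CPM in the control library), then *Sec16* at -0.37, and relative to their 200 neighbours *Sec24AB* was at -0.22 and *Sec16* at -0.04. *Sec13* was above 0 at 0.21 and *Sec23* was at -0.07.

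**Figure D5:**
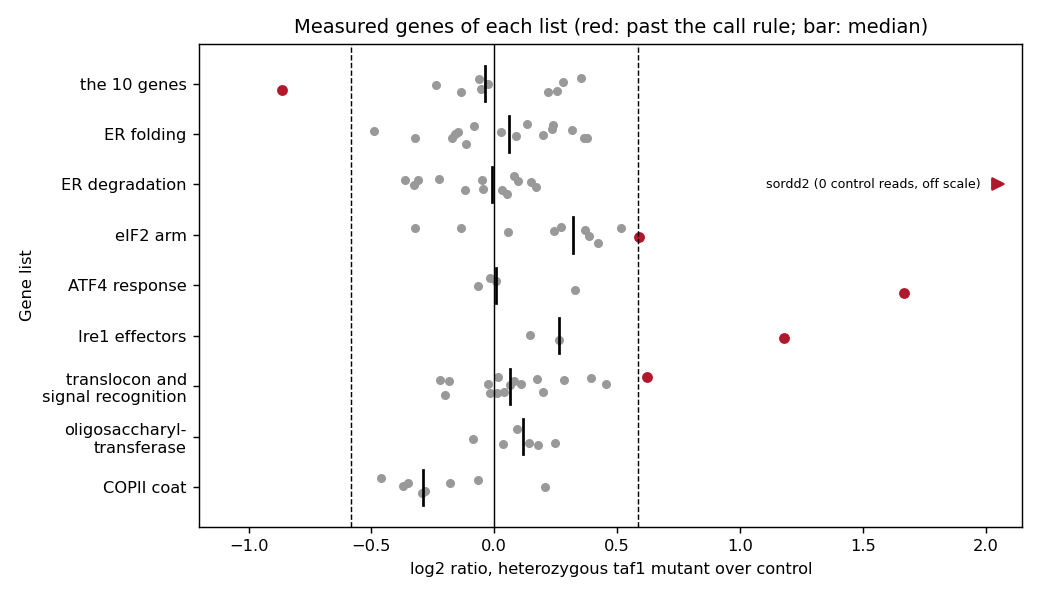
Log2 ratio of mutant over control for each measured gene of the 10 and of the 8 wider lists (points, red where the gene was called at 1.5-fold, dashed lines; black bars, list medians). The red points are *Der-1* on the left and *sordd2* (drawn off scale, 0 control reads), *eIF2Bepsilon*, *Nmdmc*, *SPARC* and *Srp14* on the right; the COPII median is the lowest at -0.29.

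Tissue markers differed in both directions between these libraries, those of secretory organs included. Of the accessory gland markers, *Acp26Aa* was lower at 512 CPM in the mutant library and 912 CPM in the control library (log2 ratio -0.83). *Acp76A* was at -0.21 and *Acp70A* was higher at 0.71. These 3 measured genes summed to 1262 CPM in the mutant library and 1581 CPM in the control library, and the other 3 were listed at 0 in both. The midgut markers summed to 1971 CPM in the mutant library and 887 CPM in the control library, with 5 of 7 above 0. Most of both sums came from *alphaTry* (796 CPM mutant, 315 CPM control) and *betaTry* (838 CPM mutant, 331 CPM control). *Jon99Fi* (log2 ratio -0.02) and *Jon65Ai* (-0.08) lay below 0. Neuronal markers summed to 1042 CPM in the mutant library and 1497 CPM in the control library. Their log2 ratios were -1.05 (*para*), -0.83 (*brp*), -0.52 (*Syt1*), -0.42 (*nSyb*), -0.32 (*Csp*) and -0.22 (*Syn*). The called genes *brp* (9557.5 nt) and *para* (6754.5 nt) lie in the tenth with the longest transcripts, whose median was -0.28, as do *Syt1* and *Syn*. Testis markers summed to 4012 CPM in the mutant library and 3269 CPM in the control library (4 of 10 called higher, 7 above 0), and the 3 yolk protein genes, made in the female fat body, summed to 14.1 CPM in the mutant library and 15.9 CPM in the control library (*Yp1* called lower at -1.81, from 14 reads in the mutant library and 31 reads in the control library). Mitochondrially encoded genes took 15.2% of reads in the mutant library and 2.91% in the control library. The part of these differences in the levels of *Der-1* and the other 9 genes was not tested.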

How the data were processed

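RNA of 10 whole flies per genotype was prepared with a stranded mRNA kit and sequenced on an Illumina HiSeq by a genomics core. Per the labels the genome build is BDGP6; for the aligner, counter and annotation the entry is "not given in the sources used here". Deposited by the authors is a signal, counts per gene scaled by a library factor. Each column's smallest value above 0 (0.794 mutant, 1.31 control) was read as 1 count, and 100% of values were whole reads within 0.001. Count tests could not be fitted, as there are 0 residual degrees of freedom.

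Sizes came from edgeR 4.0.16 in R 4.3.3 (TMM ratio of mutant over control 1.61). All else used Python 3.11.15, numpy 2.4.6, pandas 2.3.3, scipy 1.17.1 and matplotlib 3.10.9. Log2 ratios used a prior count of 0.5, and intervals are conditional binomial (Clopper-Pearson) or Poisson at 95%. Without molecular identifiers, PCR copies are counted too, and intervals cover counting error only. The calculation was run on counts simulated with Poisson error only and a known size ratio. That run checks the arithmetic and says nothing of the spread between pools of flies. At this depth 3 reads are 0.111 CPM in the mutant library and 0.179 CPM in the control library. Positions and lengths (17402 genes) come from an Ensembl BDGP6 annotation, and older symbols were matched through RefSeq.

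The 10 genes and the lists were chosen with earlier results of these data known. Named are the 10 genes, the second genes of 8 pairs, *Taf1*, the qPCR reference genes, and in each wider list the called genes and the 2 highest and 2 lowest that reach 50 reads in 1 library or more. *Ubc7*, *Hrd3*, *trbl*, *Fatp1*, *AsnS*, *aay*, *Irbp18*, *Tango1* and the marker genes are named outside this rule, after their values were seen. The alternatives were other scalings, prior count, read limit, fold limits and a reference of 200 neighbours in transcript length and expression, taken as the median of their log2 ratios. Protein and promoter sequences were not used here.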

Additional observations from a re-analysis of the deposited data

How the results depend on the processing

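*Der-1* was called lower in all 11 settings that kept the 1.5-fold limit, and none of the other 9 genes was called in any of them. For *Der-1* most of these settings could not change the call. With 2387 and 2702 reads the prior count and the read limits had no bearing on it. The other scalings moved every ratio down, or up by 0.0005 at most. With a limit of 0.32 on the log2 scale 1 gene, *Atf6*, was called higher, and with a limit of 2-fold 0 were called lower. The median log2 ratio of the 10 genes was -0.30 with scaling by total reads, -0.36 on the qPCR reference scale, and 0.0939 relative to 200 neighbours in transcript length and expression. In the wider lists 3 genes were called higher and 8 lower by total reads, 3 and 11 on the qPCR reference scale, 3 higher with the authors' own scaling, 14 and 7 at 0.32, and 3 higher at 2-fold. Median of ratios, upper quartile, TMM without mitochondrially encoded genes, a prior count of 2 and other read limits left these counts within 1.5 times. A normal interval changed no pair. No library can be left out and no paired analysis was possible because each genotype has 1 library. The depth bounds counting error only, and the spread between pools of flies is not measured.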
